A study of Homo sapiens with 14 samples.

Results

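GATA3 binding regions that all 12 libraries of a chromatin immunoprecipitation (ChIP-seq) study called, and that ranked in the lower part of the peak list of at least 1 of them, are described here as weak shared regions. They were chosen in 3 steps. The 433307 peaks of the 12 deposited lists were merged into 78999 regions wherever peaks overlapped by 1 bp or more. Each region was given a score percentile in each library, which is the rank of its best peak within that library's own list, with 100 as the highest. Of the 10933 regions called in all 12 libraries (13.8% of regions), the 5205 whose lowest percentile was 50 or less were kept. They were 47.6% of the shared regions and 6.59% of all regions, and the remaining 5728 are called the other shared regions below.

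All cells were MDA-MB-231, a triple-negative line of human breast cancer, in 6 groups of 2 libraries each. Untagged groups had wildtype GATA3 (WT) or GATA3 with the point mutation A442M or G444E. WT-FLAG, A442M-FLAG and G444E-FLAG had the same 3 forms carrying C-terminal FLAG, a short epitope tag that, by the design text, stabilises the protein. All groups were untreated, were harvested on day 3 and were immunoprecipitated with an antibody to GATA3 itself, so the cells' own GATA3 cannot be told apart from the introduced form. The labels do not say which promoter drove the introduced GATA3 or whether a group was 1 clone. The 2 samples with an empty vector had no peak list among those available here. None of the lists thus shows which regions would be called without introduced GATA3. Nothing states that replicates were separate cultures, so p-values measure only how far these samples differed, and that spread may be technical.

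GATA3 is a zinc-finger transcription factor that binds GATA motifs and directs the luminal programme of the breast epithelium, where it works with the estrogen receptor and FOXA1. In T lymphocytes it directs the T helper type 2 programme. Triple-negative breast cancer cells typically have little of it. GATA factors bind mostly at distal enhancers, and a peak's score in ChIP-seq reflects how often the site is occupied or contacted across the cells as well as the depth and background of the library.

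The label "weak" held for few of these regions in every library. The rule asks for only 1 low value among 12, and 4000 of the 5205 regions (76.8%) had a median percentile above 50 over the 12 libraries. The commonest numbers of weak libraries were 1 and 2: 1387 regions (26.6%) were at 50 or less in 1 library and 1068 in 2 libraries. Only 100 regions were weak in all 12. A small peak in all cells and a larger one in few of them cannot be told apart in such data. The median region went from a lowest percentile of 27.3 to a highest of 81.6. The regions were chosen by these percentiles, that is by the authors' scores in all 12 libraries, so the percentiles are given as a description.

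Promoters that lie in weak shared regions are shown here because they let the binding letters be seen beside the ranks below. AMPD3 and DUSP2, which encode an AMP deaminase and a MAP kinase phosphatase, had among the lowest median percentiles of the promoter regions, one with GATA motif matches and one without. CLDN2, a claudin of tight junctions, and ELMOD2, a GTPase-activating protein of the ELMO domain family, were added after their values were seen: both ranked higher in untagged WT than in the 10 other libraries. Sequences are from RefSeq (GRCh38.p14), from 250 bases before to 50 after the annotated start, 5′ to 3′ on the gene's strand. Capitals mark GATA matches on either strand, for which the letters AGATAA were searched, then the variant AGATAG that ends in G, and the forms of both with T in first place, which read TGATAA where the last letter is A and TGATAG where it is G.
AMPD3: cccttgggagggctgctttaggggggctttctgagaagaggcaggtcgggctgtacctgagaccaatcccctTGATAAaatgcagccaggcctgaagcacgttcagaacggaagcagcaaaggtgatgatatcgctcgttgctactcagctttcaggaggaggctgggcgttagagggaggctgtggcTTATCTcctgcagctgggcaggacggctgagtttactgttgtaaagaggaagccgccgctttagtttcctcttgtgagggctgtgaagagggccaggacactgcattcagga
DUSP2: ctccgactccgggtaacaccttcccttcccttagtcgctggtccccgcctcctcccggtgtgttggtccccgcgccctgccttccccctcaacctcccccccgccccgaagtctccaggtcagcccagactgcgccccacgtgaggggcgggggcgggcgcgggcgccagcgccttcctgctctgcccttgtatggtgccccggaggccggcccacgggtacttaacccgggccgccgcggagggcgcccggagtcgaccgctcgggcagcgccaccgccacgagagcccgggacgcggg
CLDN2: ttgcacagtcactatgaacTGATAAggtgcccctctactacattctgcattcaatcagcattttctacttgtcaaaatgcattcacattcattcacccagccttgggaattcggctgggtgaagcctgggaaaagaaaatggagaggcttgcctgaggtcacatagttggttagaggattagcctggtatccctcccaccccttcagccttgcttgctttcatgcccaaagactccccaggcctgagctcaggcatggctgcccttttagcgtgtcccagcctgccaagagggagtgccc
ELMOD2: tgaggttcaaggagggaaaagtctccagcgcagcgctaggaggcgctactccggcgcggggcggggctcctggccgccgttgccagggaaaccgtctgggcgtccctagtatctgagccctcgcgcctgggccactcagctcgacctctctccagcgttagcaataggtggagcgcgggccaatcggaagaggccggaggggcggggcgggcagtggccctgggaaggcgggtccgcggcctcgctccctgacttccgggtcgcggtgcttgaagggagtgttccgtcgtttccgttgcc
The AMPD3 window (chr11:10455806-10456105, plus strand) lay whole inside its region and held 2 matches, and the DUSP2 window (chr2:96145391-96145690, minus strand) lay whole inside its region and held 0. The CLDN2 window (chrX:106918110-106918409, plus strand) held 1 match, and 222 of its bases were in the region. The ELMOD2 window (chr4:140523918-140524217, plus strand) held 0 and had 150 bases in the region. The AMPD3 and CLDN2 windows had 9 and 2 CpG sites, against 35 and 31 in the DUSP2 and ELMOD2 windows.

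Untagged WT had the most weak regions of any group. Over the libraries, between 978 and 3017 of the 5205 regions were at percentile 50 or less, with a median of 1600.5. The most were in untagged WT, with 2560 in replicate 1 and 3017 in replicate 2, and the fewest in A442M (1018 and 1119) and WT-FLAG (978 and 1201). G444E had 1802 and 2115, G444E-FLAG 1187 and 1769, and A442M-FLAG 1432 and 1908. Replicate 2 had more weak regions than replicate 1 in all 6 groups.

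The lowest of the 12 percentiles was in an untagged WT library for 1037 and 1360 regions and in A442M-FLAG for 400 and 721. For A442M it was there for 73 and 100 regions. Of the 1387 regions weak in 1 library, 320 and 460 were weak in untagged WT and 114 and 237 in A442M-FLAG, and in each other library the number lay between 6 and 67. List length moved with part of this: the untagged WT lists were the shortest but for G444E replicate 2, with 28890 and 25248 peaks, while the A442M-FLAG lists, with 51694 and 42993, were among the longest 3. Untagged WT also had the most peaks on unplaced contigs, 110 and 84, against 14 to 75 elsewhere. The part of either in the result was not tested.

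**Figure D1:**
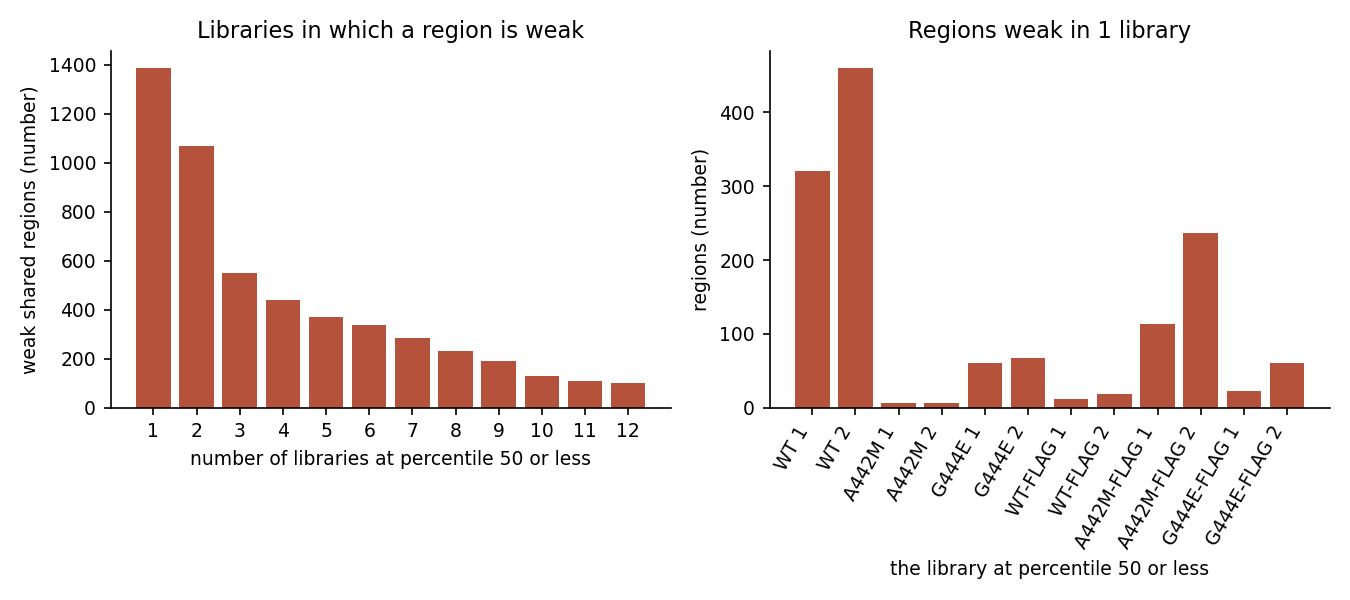
Left, number of weak shared regions (y axis) by the number of libraries in which the region was at percentile 50 or less (x axis). Right, number of regions weak in 1 library (y axis) by that library (x axis, group and replicate). The number of regions falls from 1 library to 12, and the 2 tallest bars on the right are untagged WT (320 and 460), followed by A442M-FLAG replicate 2 (237).

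Counted by group, 1870 regions (35.9%) were weak in both libraries of untagged WT, 1162 in both of G444E and 961 in both of A442M-FLAG. G444E-FLAG followed with 714, A442M with 536 and WT-FLAG with 497. Weakness in both libraries of untagged WT and of no other group was the commonest pattern, at 912 regions, and A442M-FLAG alone came next, at 293. For 2374 regions (45.6%) no group was weak in both libraries, so in these the low rank was not shared by the replicates of any group.

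In their own lists the regions were mid-ranked. The median percentile over the 5205 regions ranged over libraries from 46.1 (untagged WT replicate 2) to 69.3 (WT-FLAG replicate 1), with a median of 62.9. The other shared regions lay at 83.7 to 91.2. The authors' score, whose scale the files do not name, had a median at the weak shared regions of 18.2 to 35.1 over the libraries, next to 18.8 to 21.6 over whole lists. In untagged WT the set thus lay near the middle of the list, and in the 10 other libraries it lay above it.

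**Figure D2:**
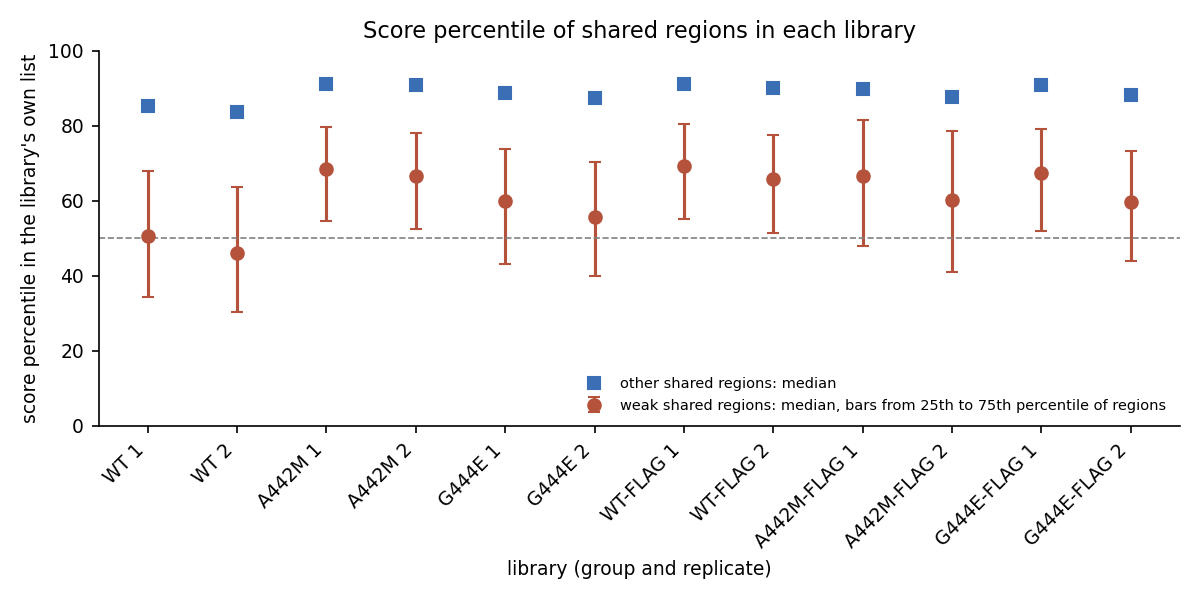
Score percentile in the library's own list (y axis, 100 highest) for the 12 libraries (x axis, group and replicate). Circles are medians over the 5205 weak shared regions with bars from the 25th to the 75th percentile of regions, squares are medians over the 5728 other shared regions, and the dashed line is the threshold of 50. Circles run from 46.1 to 69.3 and squares from 83.7 to 91.2, a gap that the rule sets.

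The threshold cut through a continuum. The last region inside it, beside MSANTD5, had a lowest percentile of 49.9965, and the regions of CYBRD1 and TSPYL1 had 49.96 and 49.95. Just outside, the regions of CRYZ, CCDC34 and NRP1 had 50.007, 50.01 and 50.03. The CYBRD1 region had a median of 81.9 and the CRYZ region one of 83.5, so regions on either side of the threshold had similar medians.

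Low rank in the libraries of 1 replicate number often went with low rank in those of the other. All regions compared were called in all 12 libraries and ranked by the rule's own percentiles, so the shares are a description. Of 3777 shared regions weak in at least 1 of the 6 replicate 1 libraries, 79.6% were also weak in at least 1 of the 6 replicate 2 libraries, against 19.96% of the 7156 regions that were not. In the other direction, 67.8% of 4433 regions weak in a replicate 2 library were weak in a replicate 1 library, against 11.9% of the rest. The same share over all shared regions was 40.5% and 34.5%. About 1 region in 5 chosen in replicate 1 thus did not fall to 50 in any replicate 2 library.

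Of the regions that stayed lowest in every library, 7 are described, which lay near SPRY4, ITGA2, SRPX, PHF20, EPHA4, STRIP2 and SPAG9, each named by the nearest end of a protein-coding gene, which does not make it a target. Their highest percentiles ran from 28.0 to 37.3. The region beside SPRY4 (chr5:142251288-142252019), a gene for an inhibitor of receptor tyrosine kinase signalling, lay outside any gene, 58777 bp from SPRY4, measured from the region's midpoint like all distances here. Its percentiles were 2.32 and 5.45 in WT, 15.1 and 24.8 in A442M, 14.5 and 24.6 in G444E, 28.0 and 14.2 in WT-FLAG, 15.5 and 15.4 in A442M-FLAG, and 17.7 and 19.3 in G444E-FLAG. It was thus low throughout and lowest in untagged WT.

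The region in PHF20 (chr20:35820719-35821479), which encodes a subunit of a histone acetyltransferase complex, fell to 0.0252 in A442M replicate 1 and reached 34.0 in WT-FLAG replicate 2, with a median of 18.6. In STRIP2 (chr7:129438800-129439700), which encodes a protein of the STRIPAK phosphatase complexes, the percentiles ran from 5.25 to 36.8 with a median of 13.3. The region beside EPHA4 (chr2:221629210-221629879), an ephrin receptor gene, ran from 1.504 to 35.7 with a median of 13.2. No group was lowest throughout these regions: the lowest value fell in 5 different libraries for SPRY4, ITGA2, PHF20, STRIP2 and SPAG9, and in G444E-FLAG replicate 2 for SRPX and EPHA4.

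The 8 regions with the largest range between libraries showed the pattern of the counts in single loci. In 7 of them the lowest value was in an untagged WT library and the highest in an A442M-FLAG library. The region in SACM1L (chr3:45712093-45713036), which encodes a phosphoinositide phosphatase of the endoplasmic reticulum, had percentiles of 21.2 and 1.03 in WT. It had 69.6 and 76.0 in A442M, 78.7 and 71.0 in G444E, 88.1 and 93.2 in WT-FLAG, 98.8 and 99.1 in A442M-FLAG, and 87.8 and 86.8 in G444E-FLAG. Both untagged WT libraries thus lay under the 10 others, and both A442M-FLAG libraries over them. Regions beside SH3RF1 (chr4:169079530-169080778), SHPRH (chr6:145836130-145837358) and in NUDCD3 (chr7:44469176-44470591) were arranged alike, with 8.03 and 3.09, 26.8 and 3.82, and 38.3 and 3.09 in WT against medians of 85.0, 81.8 and 80.7.

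In SMCHD1 (chr18:2755402-2756499), a gene of X inactivation and chromatin structure, and beside COMMD8 (chr4:47468501-47469311), the untagged WT replicates did not match each other. SMCHD1 had 1.47 in replicate 1 and 72.3 in replicate 2, and COMMD8 had 53.1 and 4.25. Both regions were at 72.7 or more in the 10 other libraries.

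The reverse arrangement was found in TBC1D1 (chr4:38075277-38076251), which encodes a GTPase-activating protein for Rab proteins, at a region nearest to the gene model LOC124900692. It had 96.2 and 98.5 in WT, 88.9 and 93.7 in A442M, 72.0 and 81.2 in G444E, 65.9 and 69.3 in WT-FLAG, 76.5 and 67.1 in G444E-FLAG, and 3.05 and 39.8 in A442M-FLAG. The A442M-FLAG libraries were the low ones here. All 8 regions were picked for their range, so the order of groups in them is a description.

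**Figure D3:**
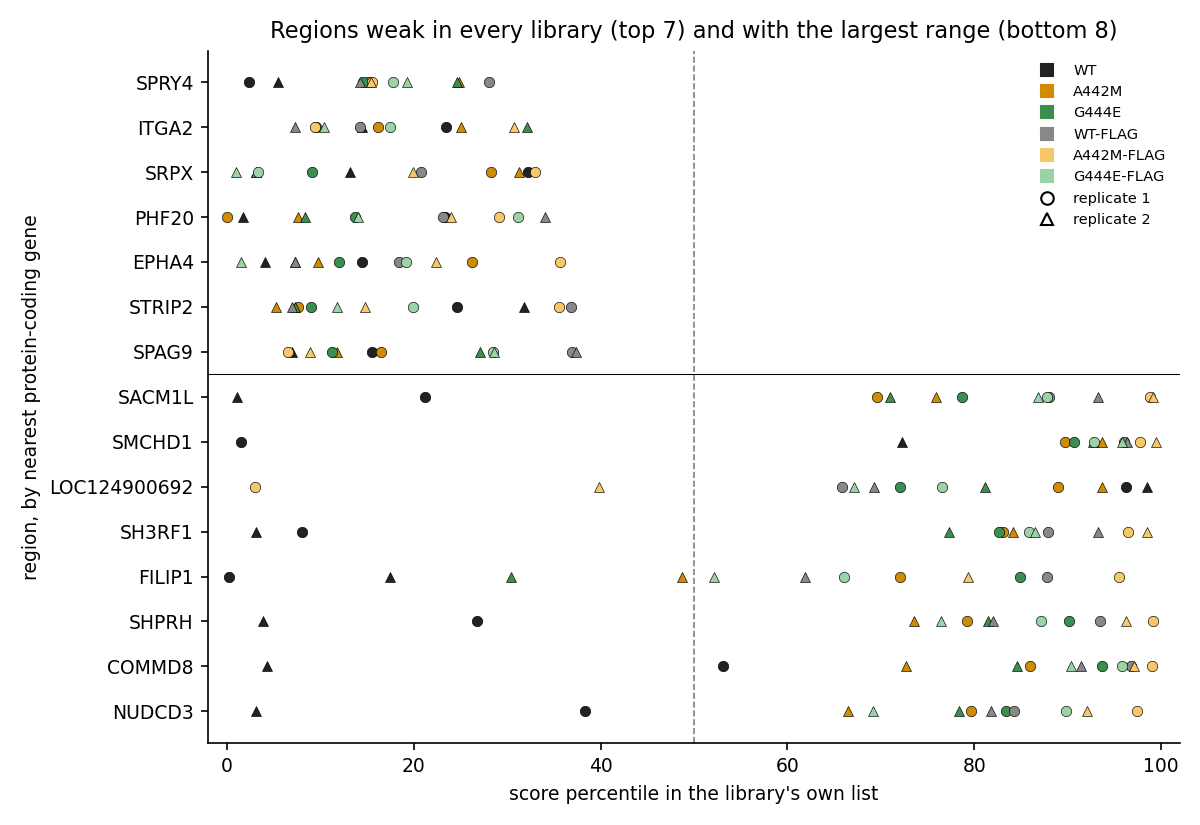
Score percentile in the library's own list (x axis) for 7 regions weak in every library (upper block) and the 8 with the largest range (lower block), labelled by nearest protein-coding gene (y axis). Each point is 1 library, coloured by group, with circles for replicate 1 and triangles for replicate 2. The upper block stays at 37.3 or less, and in the lower block the black WT points are lowest in all regions except that of LOC124900692 in TBC1D1.

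Merging can join different peaks into 1 region. In 4879 of the 5205 regions (93.7%) the best peaks of the 12 libraries shared at least 1 base, and the median stretch common to all was 244 bp. In the other 326 regions (6.26%) they did not, so different libraries contributed different peaks. The same held for 125 of the other shared regions (2.18%). The named regions of ITGA2 and FILIP1 were among the 326, and so was a region in YAP1 (chr11:102225940-102227130), where untagged WT replicate 2 stood at 0.465 against 75.4 to 91.8 elsewhere. Leaving such regions out kept 4879 regions, 89 of them weak in all 12 libraries.

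Regions that were high in most libraries and weak in 1 were mostly weak in untagged WT. Of 126 regions weak in 1 library with a median percentile of 90 or more, 111 were weak in an untagged WT library and 14 in an A442M-FLAG library, and 122 had a base common to all best peaks. One lay 32806 bp from CTSD, within 50 kb of TNNI2 (chr11:1795961-1797506). It had 72.1 and 29.6 in WT and at least 99.3 in the 10 other libraries. Among the highest regions of 10 libraries, it was thus a middling peak in untagged WT.

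Most weak shared regions lay away from promoters. A promoter window of the RefSeq table, which covers 15843 genes and is not complete, overlapped 138 of them, or 2.65% (95% Wilson interval 2.25 to 3.12). It overlapped 114 of the other shared regions, or 1.99% (1.66 to 2.39), 3.36% of all regions and 3.81% of the 18590 regions called in 1 library. The intervals cover counting error only, and neighbouring regions are not independent. Within the set, promoter regions were 3.18% and 3.77% of those whose lowest percentile was up to 10 and from 10 to 20. They were 2.62%, 2.26% and 1.73% in the next steps of 10, up to 50. Just outside the set, from 50 to 60, the share was 2.63%, and each step held few promoter regions.

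By midpoint, 50.8% of the weak and 51.0% of the other shared regions lay inside the span of a protein-coding gene. The exon and intron structure was not used here. The median distance to the nearest gene end was 33975 and 31804 bp, and 23.2% and 21.9% lay more than 100 kb away. Within 1 kb of a gene end were 4.44% and 3.21%, a gap in the same direction as at promoters. Weak shared regions were narrower after merging, with a median of 834 bp against 963 bp, and both were wider than the 449 bp of all regions. By chromosome, the weak share of shared regions ran from 44.1% on chromosome 9 to 57.1% on chromosome 18, and 3 weak shared regions lay on unplaced contigs.

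The share at promoters was set side by side for regions weak in A442M-FLAG and in untagged WT. Of the 568 regions weak in both A442M-FLAG libraries but not in both untagged WT libraries, 35 were at a promoter, or 6.16% (4.46 to 8.45). Of the 1477 with the opposite arrangement, 28 were, or 1.90% (1.31 to 2.73). Of the regions weak in untagged WT alone, 10 of 912 were at a promoter (1.10%), of those weak in A442M-FLAG alone, 18 of 293 (6.14%), and of those weak in G444E alone, 5 of 175 (2.86%). Position was not used by the rule, but these classes rest on 2 libraries each, and the shares were not tested.

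**Figure D4:**
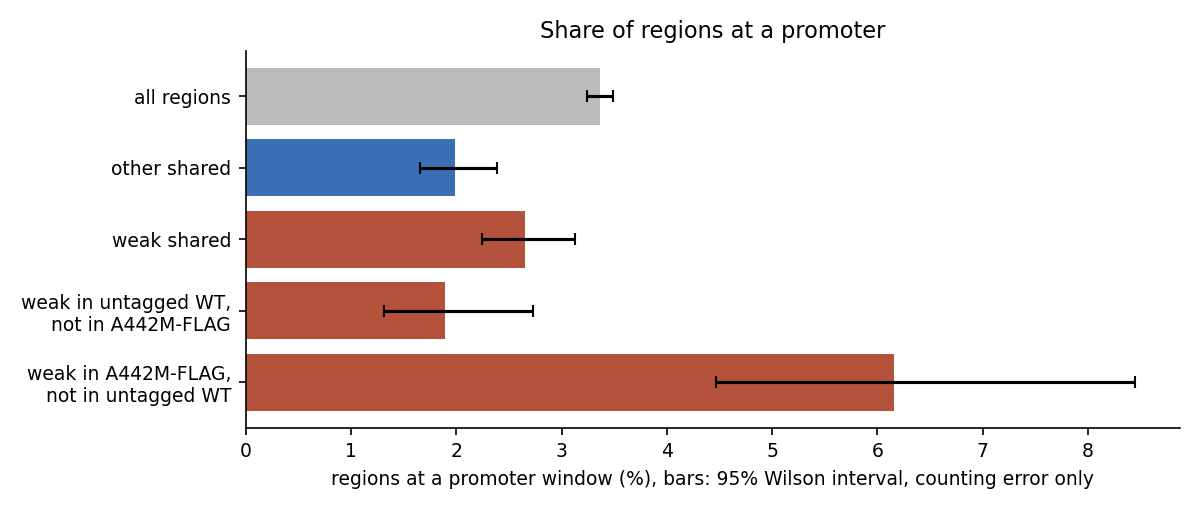
Share of regions that overlap a RefSeq promoter window in percent (x axis) for all 78999 regions, the 5728 other shared regions, the 5205 weak shared regions and 2 classes of the latter (y axis). Bars on the columns are 95% Wilson intervals for counting error only. Regions weak in A442M-FLAG but not in untagged WT stand at 6.16%, and those weak in untagged WT but not in A442M-FLAG at 1.90%.

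Promoter regions with a low median included those of AMPD3, MERTK, DUSP2, TMEM161B, SLC60A2, TVP23C, PIGM and KRTAP4-6, the 8 lowest by median percentile. The AMPD3 region (chr11:10455727-10456414) had a lowest percentile of 10.6, a median of 23.3 and a highest of 52.6. The DUSP2 region (chr2:96144909-96145841) had 5.47, 28.7 and 55.2. The region of MERTK (chr2:111898639-111900054), a receptor tyrosine kinase for the uptake of dying cells, had 2.49, 25.6 and 46.1 and was weak in all 12 libraries, though only 18 bases of the promoter window lay in it. The highest median of the 8 was 30.9, for KRTAP4-6. The windows printed above for AMPD3 and DUSP2 thus belong to regions of like rank, one with 2 GATA matches and one with none. Among the windows of these 8 genes, only that of AMPD3 held a GATA match.

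To compare ranks between lists of different length, regions were ranked again among the 10933 shared regions, a set of the same size in every library. On this scale the promoter members of the set moved against the others from library to library. Their median rank minus that of the remaining weak shared regions was 8.79 and 5.61 points in WT, -0.16 and -4.37 in A442M, -2.09 and -8.40 in G444E, 1.97 and -5.88 in WT-FLAG, -14.1 and -14.2 in A442M-FLAG, and 1.80 and -6.08 in G444E-FLAG. Untagged WT was thus highest, A442M-FLAG lowest, and replicate 1 above replicate 2 in all 6 groups, by a small margin in A442M-FLAG.

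These differences were looked at after the values were seen, and the regions were chosen by the same scores, so they are given as a description. Exact permutation tests run on them did not pass, and for these reasons they cannot decide whether the groups differ. For A442M against WT, p was 0.0556, the smallest that 36 arrangements allow, and 0.148 after adjustment within these contrasts. The difference of A442M minus WT was -10.8 points, with no overlap in either tag state: 7.20 ± 2.24 in untagged WT against -2.26 ± 2.98 in untagged A442M, and -1.96 ± 5.55 against -14.1 ± 0.055 with the tag (SD, n = 2 each). The difference for G444E against WT was -6.31 and was -12.4 between the untagged groups and -0.18 with the tag. FLAG against untagged gave -5.98, but the sign was not the same in each genotype. It was -11.9 in A442M and -9.16 in WT, without overlap, and 3.11 in G444E, with overlap. At the other shared regions the tag difference was -0.11 on average. By genotype it was -4.75 in A442M and 4.43 in G444E, both without overlap, and -0.029 in WT, with overlap. The difference of A442M minus WT at the other shared regions was -7.49, in the same direction as at the weak ones.

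Single promoter regions followed. Both untagged WT ranks lay above the 10 others in 33 of 138 promoter members (23.9%), next to 13.4% of all weak shared regions and 13.2% of all shared regions. Both A442M-FLAG ranks lay below the 10 others in 33 as well (23.9%), next to 5.78% and 9.72%. Both held in 20. Among 114 other shared promoter regions the counts were 16 (14.0%) and 36 (31.6%). The rule used these ranks, so nothing is read from the share in the set as a whole.

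The ELMOD2 region (chr4:140524068-140524730) ranked at 87.8 and 80.6 in WT, 57.8 and 59.5 in A442M, 64.9 and 55.6 in G444E, 33.9 and 28.4 in WT-FLAG, 49.96 and 47.2 in G444E-FLAG, and 6.16 and 1.65 in A442M-FLAG. It was among the 20 regions of both kinds. The CLDN2 region (chrX:106917807-106918331) ranked at 64.3 and 63.8 in WT and between 12.6 and 46.5 in the 10 others, with A442M-FLAG at 30.4 and 12.6. Promoters of JARID2, a cofactor of Polycomb repressive complex 2, GARS1, a glycyl-tRNA synthetase, PALS1, a polarity protein, ZNF322 and the shared start region of B2M and PATL2 were also among the 20. These genes were picked after their values were seen.

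GATA letters were found in 58 of the 186 promoter windows met by weak shared regions (31.2%), in 38 of 137 windows at other shared regions (27.7%), in 21.1% of windows at any region and in 20.001% of all 22199 windows. Restricted to the bases covered by a region, the counts were 54 of 186 (29.0%) and 35 of 137 (25.5%). Several windows can belong to 1 gene: the 186 belonged to 153 genes.

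Other letters were searched in the same windows on both strands. The AP-1 letters TGANTCA were in 9.14% of windows at weak shared regions, 12.4% at other shared regions and 6.15% of all windows. TEAD (GGAATG) gave 11.8%, 18.2% and 12.2%, and RUNX (TGTGGT) 10.8%, 15.3% and 11.3%. ETS (CCGGAAG) gave 15.1%, 7.30% and 12.8%. The GC box (GGGCGG) gave 54.3%, 53.3% and 56.3%, and the CCAAT box 34.9%, 34.3% and 34.7%. The widest gap between both kinds of shared region was in the ETS letters, with 28 windows against 10, and none of these differences was tested. Mean GC content was 61.4%, 59.3% and 60.9%. A match is a string of letters and not a shown binding site.

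Peak width was not used by the rule. It was measured by the same caller as the score that chose the regions, so it may not be independent of that choice. The median width of the widest peak at weak shared regions was 353 and 370 bp in WT, 482 and 521 in A442M, and 443 and 483 in G444E. It was 531 and 613 in WT-FLAG, 488 and 560 in A442M-FLAG, and 470 and 560 in G444E-FLAG. Replicate 2 was wider in every group, and untagged WT was narrowest. Untagged WT was also narrowest at the other shared regions (447 and 479 bp) and over whole lists (302 and 335 bp), so this was not particular to the set. FLAG libraries averaged 537 ± 52.5 bp (SD, n = 6), 1.22-fold the width in the 6 untagged ones (SD 67.3 bp), a log2 difference of 0.29 that was positive in 6 of 6 same-number pairs. It did not pass (exact permutation test, two-sided, p = 0.0556, adjusted p = 0.259 over 8 tests).

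Most of that difference was in the wildtype pair. WT-FLAG had 572 ± 58.0 bp against 361.5 ± 12.02 in WT, with no overlap, whereas A442M-FLAG had 524 ± 50.9 against 501.5 ± 27.6 and G444E-FLAG 515 ± 63.6 against 463 ± 28.3. Without the untagged WT libraries the log2 difference was 0.11. Width differences between genotypes were 0.17 for A442M against WT (exact permutation p = 0.278), 0.10 for G444E against WT (p = 0.444) and 0.07 for A442M against G444E (p = 0.444), where 36 arrangements allow no p under 0.0556. Without untagged WT the first 2 turned to -0.13 and -0.15. Widths over whole lists and at other shared regions differed with the tag by 0.19 (exact permutation p = 0.139) and 0.22 (p = 0.12).

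**Figure D5:**
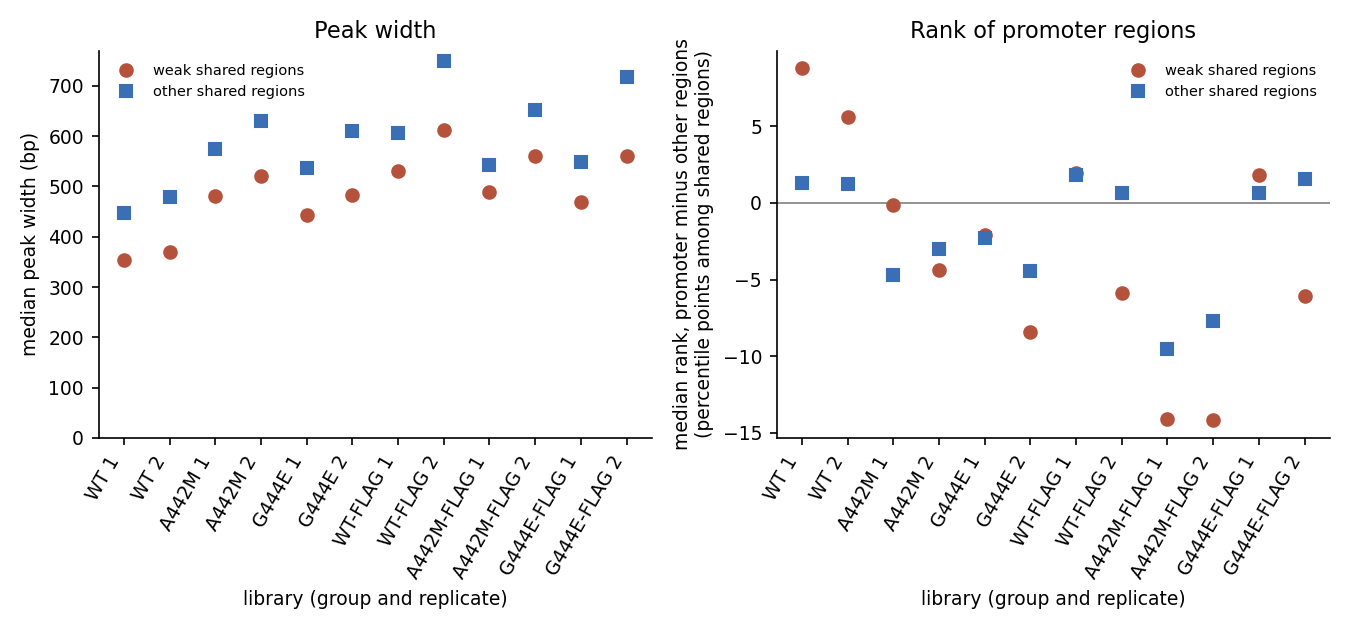
Left, median width in bp of the widest peak (y axis, from 0) at weak (circles) and other (squares) shared regions in the 12 libraries (x axis). Right, median rank of promoter regions minus that of the remaining regions, in percentile points among the 10933 shared regions (y axis). Untagged WT has the narrowest peaks (353 and 370 bp at weak shared regions) and the highest promoter ranks, and A442M-FLAG the lowest promoter ranks (-14.1 and -14.2).

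The rank of the set among shared regions was compared with each library measured on regions chosen in the opposite replicate number. Replicate 1 libraries were thus measured on 4433 regions and replicate 2 libraries on 3777. Both sets came from regions called in all 12 libraries and were chosen by libraries of the same groups. The choice was therefore not independent of the measured ranks. FLAG libraries had a median rank of 25.1 ± 1.24 and untagged ones 23.7 ± 1.03 (SD, n = 6 each), a difference of 1.46 points that was positive in 6 of 6 pairs and did not pass (exact permutation p = 0.0648, adjusted p = 0.259). A442M-FLAG had 26.6 and 26.1, above the 10 other libraries at 22.6 to 25.6. A442M differed from WT by 0.74 points (exact permutation p = 0.444), A442M from G444E by 0.94 (p = 0.333) and G444E from WT by -0.20 (p = 0.722).

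Few regions separated all FLAG from all untagged libraries. On the rank among shared regions, the 6 FLAG values lay above the 6 untagged ones in 156 weak shared regions (3.00%, against 2.59% of shared regions) and below them in 114 (2.19%, against 2.96%). A442M lay above WT in 71 (1.36%, against 1.65%) and below in 75 (1.44%, against 1.63%). G444E lay above WT in 35 (0.67%, against 0.979%) and below in 77 (1.48%, against 1.19%). These shares were near those of shared regions in general. Both untagged WT libraries lay below the 10 others in 637 (12.2%, against 12.3%), and both A442M-FLAG libraries above them in 671 (12.9%, against 9.83%).

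The region in GATA3 itself was a weak shared region. It lay in the gene's span (chr10:8070654-8072097), 3823 bp from the gene's end, and whether it is exonic was not assigned. Its percentiles were 57.8 and 27.8 in WT, 72.3 and 56.5 in A442M, 31.2 and 44.1 in G444E, 58.0 and 41.8 in WT-FLAG, 27.5 and 42.2 in A442M-FLAG, and 46.9 and 25.4 in G444E-FLAG. In 8 of 12 libraries it was at 50 or less, with no group apart from the rest. The sources do not say whether reads from an introduced GATA3 copy could map there.

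A weak shared region lay within 50 kb of 5017 of 20056 protein-coding genes (25%), and another shared region within 50 kb of 5467 (27.3%). Against that background the lists of genes were read as counts. Among GATA factors and cofactors 5 of 12 had a weak shared region, as had 7 of 14 RUNX and AP-1 factors, 9 of 15 TGF-beta pathway genes and 11 of 17 Hippo pathway genes and YAP targets. Another shared region was near 5, 6, 8 and 11 of them. All 4 lists stood above the background with both kinds of region. So did luminal and estrogen response genes (35% and 55%) and interferon and JAK-STAT genes (41.2% with either kind). Ribosomal (45%) and neuronal genes (35.7%) stood above it with weak shared regions only. Mesenchymal, cell cycle, and ubiquitin ligase and proteasome genes did so with other shared regions only. Listed genes were not matched for length.

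TGFB2, a TGF-beta ligand, had 5 weak shared regions. One inside the gene (chr1:218369768-218370438) had a lowest percentile of 17.1, a median of 33.3 and a highest of 66.9, and another (chr1:218409074-218410803) had 24.9, 82.3 and 95.4, so both kinds of weakness stood in 1 gene. SMAD3, which carries the signal to the nucleus, had 4, with medians from 57.4 to 78.2. SKIL, an inhibitor of SMADs, had 3, nearest to PRKCI and CLDN11, with medians from 25.3 to 63.8.

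RUNX1, a transcription factor of blood and breast epithelium, had 6, the most of any listed gene. A region across the end of its span (chr21:35049088-35050050), with its midpoint 267 bp outside, had a lowest percentile of 22.7, a median of 38.4 and a highest of 65.3. One inside the gene (chr21:34836154-34836875) had 5.86, 39.9 and 54.0. FOSL2, an AP-1 subunit, and RUNX2 had 3 each. TRPS1, a GATA-type repressor, also had 3, all with their midpoint in its span, with medians of 54.1 to 87.0.

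In the Hippo pathway, STK3, a kinase, had 5 and the transcription factor TEAD1 and its coactivator YAP1 had 3 each. The TEAD1 regions had medians of 55.6 to 79.3. The YAP1 region named above, whose best peaks shared no base, was one of its 3.

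Luminal and estrogen response genes had a weak shared region in 7 of 20 and another shared region in 11, and mesenchymal genes in 3 of 18 and 11. MLPH had 3 weak shared regions, and ESR1, the estrogen receptor, and the cadherin gene CDH1 had 2 each. The ESR1 region outside the gene (chr6:152170802-152171683) had a lowest percentile of 11.3, a median of 33.2 and a highest of 60.6. The mesenchymal genes with a weak shared region were CD44, CDH2 and ZEB2. More of the mesenchymal genes had another shared region nearby than a weak one, in a list of 18 genes.

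Cell cycle genes had a weak shared region in 3 of 18 (CDK6, CCND3 and CDK1), ubiquitin ligase and proteasome genes in 4 of 18, and mitochondrial and housekeeping genes in 3 of 18. For another shared region the counts were 7, 8 and 3. Ribosomal protein genes had 9 of 20 against 4, but 3 against 1 within 10 kb. The RPL10A region (chr6:35452273-35453764) was at a promoter, with its nearest gene end that of FANCE, and had a lowest percentile of 5.45, a median of 38.7 and a highest of 67.2.

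Interferon and JAK-STAT genes had 7 of 17 with either kind. Both weak shared regions within 50 kb of IFIT1, an interferon-induced RNA-binding protein, overlapped promoter windows. The one at the gene itself (chr10:89392325-89393775) had 49.2, 70.4 and 77.5. The other lay outside IFIT1, with its nearest gene end that of LIPA, 608 bp away. T cell genes had 3 of 16 against 4, among them IL7R with 3 regions, one at its promoter (chr5:35856611-35857375) with 21.9, 46.4 and 75.2. Erythroid genes had 1 of 14 with either kind, neuronal genes 5 of 14 against 3 (2 against 3 within 10 kb), and muscle genes 2 of 14 against 1.

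Genes outside the lists were ranked by their number of weak shared regions after these were counted. RAD51B, a recombination gene, had the most within 50 kb, 12, beside 6 other shared regions. LIMCH1 and EXT1 had 10 each, and ADAMTS16, TRIO, CAST and GPHN had 9 each. RGS5, a regulator of G-protein signalling, had 6 and no other shared region. Long genes collect more regions, and these counts were not scaled by length.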

How the data were processed

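ChIP-seq peak lists of 12 GATA3 libraries were used, 1 per library, so peaks were called per sample. The build was hg38 and the tools included FastQC and the peak caller MACS2 2.1.4, per the submitters' processing notes. The aligner, the control and the filters were not stated by any source used here, and the read depth is unknown. The score in column 5 of each deposited file is the authors' own value on an unnamed scale, at least 5.00 in every list, and served only for ranks and a minimum inside each list.

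Peaks were merged at 1 bp overlap, percentiles were ranked within a list, and ranks for comparing libraries were taken within the 10933 shared regions. Coordinates are 1-based. Genes and promoter windows came from RefSeq tables of GRCh38.p14, which has the chromosome coordinates of hg38. The gene table has spans without exons, and 20056 protein-coding genes were used. Python 3.11.15, numpy 2.4.6, pandas 2.3.3, scipy 1.17.1 and matplotlib 3.10.9 were used, and the scripts were tested on simulated data.

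Values per library were tested by exact two-sided permutation, with the tag permuted within genotype or genotype within tag state, and Benjamini-Hochberg adjustment over 8 tests. Same-numbered libraries deviated together: over 15 pairs of groups, the correlation across shared regions of the replicate 1 minus replicate 2 rank difference was 0.536 to 0.664. On this evidence, and on none in the labels, pairs were formed by replicate number for the pair counts and the replicate block. The main permutation tests did not use this pairing.

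Named by rule were 8 regions with the lowest highest percentile, 8 with the largest range, 3 on each side of the threshold, 8 promoter regions with the lowest median, up to 3 genes per list and GATA3. One region that the rule names is not reported here. Chromosome 8 and contigs were left out except for genes of the lists. The regions, the 15 gene lists and the rule were chosen with earlier results of these data known. Alternatives were other thresholds, score and overlap minimums, equal lists, other gene distances, a replicate block and each library left out.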

Additional observations from a re-analysis of the deposited data

How the results depend on the processing

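The number of weak shared regions depended on the rule's own settings. It was 2384 at a lowest percentile of 25 or less, 8439 at 75 or less, 8648 by rank among shared regions, and 1057 of 2793 shared regions where calls had to cover 50% of a region. The promoter share (2.65%) was 3.44% at 25 or less, 2.22% with scores of at least 10 and 1.79% with lists of equal length, where the other shared regions had 1.90% and 1.68%. It was 4.44% within 1 kb and 15.2% within 5 kb of a gene end. Leaving out each library gave 5226 to 5817 regions and 2.51% to 2.84% at promoters. With the regions kept as chosen in all 12 libraries, the share with FLAG and untagged ranks apart (5.19%) was 5.32% to 8.57%. It was 8.34% and 8.57% without G444E replicate 1 and 2 (8.85% and 8.97% of shared regions).

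No test passed under any alternative run. The genotype contrasts could not have passed, since they have at most 36 arrangements, which allow no exact permutation p under 0.0556. For the tests, the regions stayed as first chosen when a library was left out. Leaving out each library moved the width difference of FLAG against untagged to 0.25 to 0.33, of A442M against WT to 0.12 to 0.22, of G444E against WT to 0.038 to 0.16 and of A442M against G444E to 0.0081 to 0.13. It moved the held-out rank difference to 1.09 to 1.83 (FLAG against untagged), 0.19 to 1.30 (A442M against WT) and 0.47 to 1.42 (A442M against G444E). The held-out rank of G444E against WT had no stable sign: it was -0.75 to 0.36 when libraries were left out (0.36 without WT replicate 1, 0.14 without G444E replicate 2, 0.31 without WT-FLAG replicate 1 and 0.14 without G444E-FLAG replicate 2), 0.0392 with scores of at least 10 and 2.05 with own-list percentiles. With a replicate block, which exchanges labels only between same-numbered libraries, FLAG against untagged had an exact permutation p of 0.0312 and an adjusted p of 0.125 for width (0.29) and for held-out rank (1.46), the smallest p that its 64 arrangements allow. Genotype contrasts have 16 blocked arrangements and a smallest p of 0.125, so no result could pass the adjustment under the block. Chosen after seeing the data, the 10 libraries other than untagged WT gave 6946 regions, 2.78% at promoters. Widths were not measured on these 6946 regions. At the regions chosen in all 12 libraries, the 10 libraries gave width differences of -0.13 for A442M and -0.15 for G444E against WT. The cause of these changes was not tested. Read depth is unknown and limits what a missing or low peak can show. Within 10 kb in place of 50 kb, 13.3% of protein-coding genes had a weak shared region, and the lists that moved by over 1.5 times were Hippo (7 genes), proteasome (1), ribosomal (3), neuronal (2), muscle (1) and erythroid (0).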
